A study of Mus musculus with 7 samples.

Results

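The calcium/calmodulin-dependent protein kinases (CaM kinases) were read here as transcripts in ribosome precipitates aimed at activated cells of mouse medial prefrontal cortex (mPFC). The list holds 10 genes, named by symbol: Camk2a, Camk2b, Camk2d, Camk2g, Camk1, Camk1d, Camk1g, Camk4, Camkk1 and Camkk2. Matched exactly to probe sets carrying 1 gene symbol, 9 of the 10 were found among 22180 genes. Camkk1 had no such probe set among those annotated here and is not analysed.

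In the labels, mice with a ribosome tag (TRAP) were crossed to an ArcCre transgenic line, so that tamoxifen given during an experience tagged ribosomes with GFP in the cells active at that time. The cocaine-activated group (4 arrays, numbered 4, 5, 6 and 7) received 15 mg/kg cocaine on 2 days. The shock-activated group (3 arrays, numbered 4, 5 and 6) received 20 shocks of 0.5 mA, each lasting 2 s, on 2 days. Both groups carried the tag and the Cre transgene, and both were precipitated from mPFC with an anti-GFP antibody. The labels state neither age nor sex, and do not say whether arrays came from separate animals or pools. All p-values rest on array-to-array spread alone, part of which may be technical. Cells are tagged in either group only if they used the Arc promoter during labelling. No untreated mice or unprecipitated RNA were analysed here, so the share of RNA that came from tagged cells was not tested. In such bulk precipitates, fewer cells of a type and less RNA per cell cannot be told apart.

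CaM kinases are serine/threonine kinases that calcium-loaded calmodulin switches on when calcium enters a neuron. CaMKII, built from subunits encoded by Camk2a, Camk2b, Camk2d and Camk2g, is abundant at excitatory synapses of the forebrain, can phosphorylate itself so that its activity outlasts the calcium signal, and is needed for long-term potentiation. In a second branch, CaM kinase kinases (Camkk1, Camkk2) phosphorylate CaMKI (Camk1, Camk1d, Camk1g) and CaMKIV (Camk4), and nuclear CaMKIV phosphorylates the transcription factor CREB. RNA arrays read how much transcript was in the precipitates and not the activity of these enzymes.

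The transcripts of the 9 measured CaM kinases had nearly the same level in the precipitates of the cocaine-activated and shock-activated groups. Differences, cocaine minus shock on the log2 scale, ran from -0.030 for Camk1d to 0.11 for Camkk2, with a median of 0.0090, beside 0.0016 over all 22180 genes. Across the 9 genes the 95% intervals of the difference reached no farther than 1.20-fold in either direction. No member passed limma's adjusted p of 0.05, where 0% of all genes passed. At an unadjusted p under 0.05 the count was also 0 of 9, against 3.10% of all genes (688). In 0 of 9 members did the groups separate without overlap, against 2.37% of all genes (1.25% with the cocaine arrays above and 1.11% with them below). These are statements about the size of a difference that the arrays could hold, since a p that misses the threshold does not show equal levels.

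Camk2a encodes the alpha subunit of CaMKII, the main form in excitatory forebrain neurons (probe set 17351001, Entrez 12322). Its log2 level was 12.15, 12.17, 12.17 and 12.19 on cocaine arrays 4 to 7, against 12.12, 12.23 and 12.14 on shock arrays 4 to 6. The shock arrays held both the highest and the lowest value, and the 4 cocaine arrays lay between them. Means were 12.17 ± 0.02 on the cocaine arrays and 12.16 ± 0.06 on the shock arrays (SD, n = 4 and n = 3). The difference of 0.0074 had a 95% interval of -0.081 to 0.095, which is 0.946-fold to 1.07-fold (limma adjusted p = 0.984).

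Camk2b, the actin-binding beta subunit, showed the same arrangement. It had 9.84, 9.84, 9.90 and 9.86 on cocaine arrays 4 to 7, against 9.77, 9.95 and 9.84 on shock arrays 4 to 6. Shock array 5 was again the highest and shock array 4 again the lowest. The difference was 0.0090 (95% interval -0.11 to 0.13, limma adjusted p = 0.985).

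Camk2d and Camk2g encode the delta and gamma subunits, which are also used outside the nervous system. Camk2d had 9.91, 9.92, 9.92 and 9.92 on the cocaine arrays, against 9.91, 9.92 and 9.99 on the shock arrays. Of its 7 values, 4 were identical, and only shock array 6 stood above the others. Camk2g had 9.56, 9.72, 9.68 and 9.72 on the cocaine arrays, against 9.66, 9.68 and 9.67 on the shock arrays. Here cocaine array 4 was the lowest and the shock arrays lay inside the cocaine range. The differences were -0.023 for Camk2d (95% interval -0.10 to 0.056) and -0.00058 for Camk2g (-0.11 to 0.11).

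**Figure D1:**
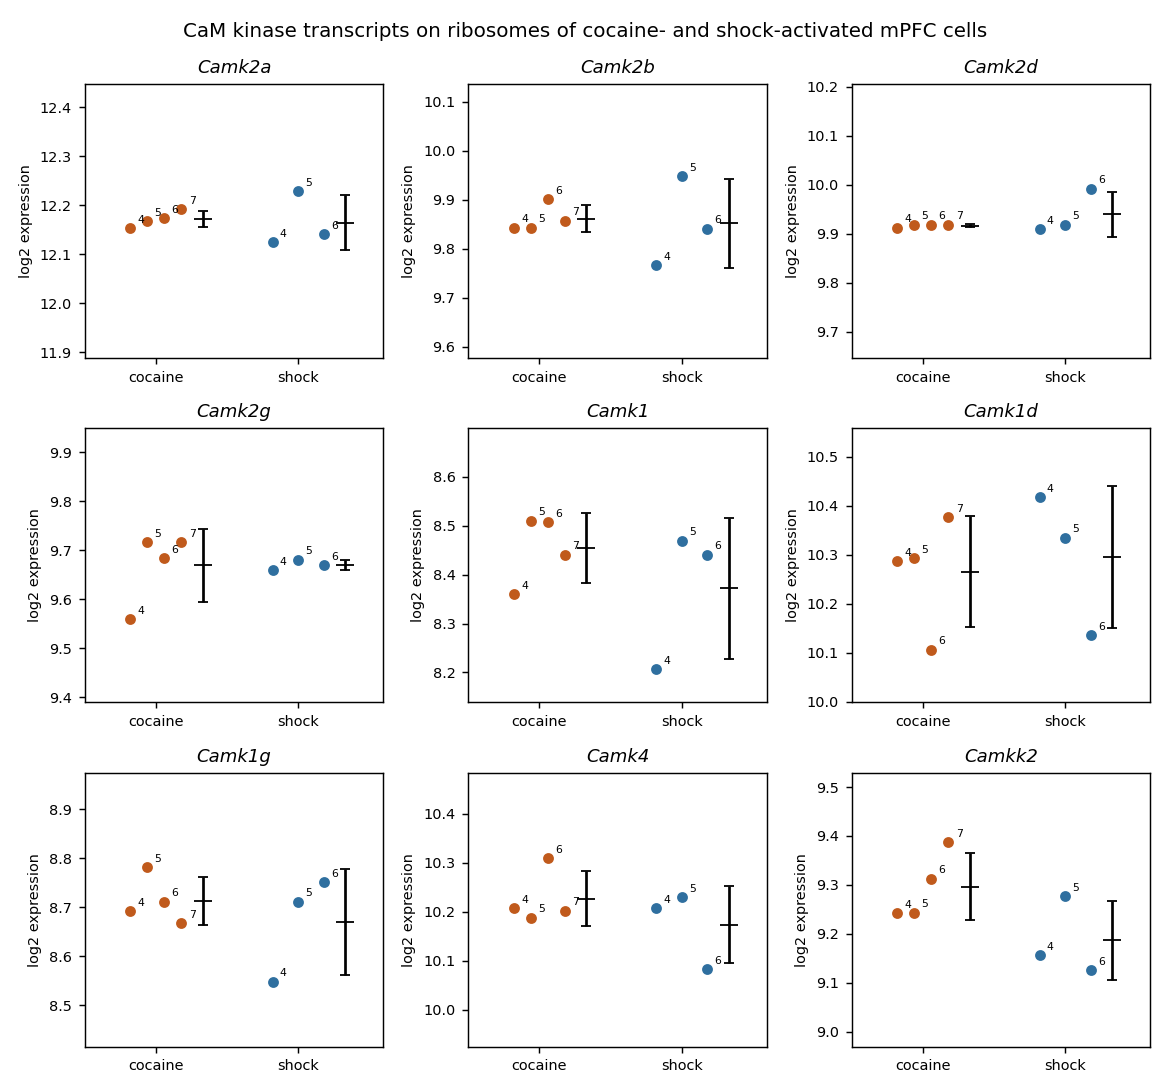
Log2 expression of the 9 measured CaM kinase genes on each array (points, numbered as the arrays are), with the cocaine group left and the shock group right; bars give the mean and SD (n = 4 and n = 3), and every panel spans the same range on the log2 scale. The groups overlap in all 9 panels, the cocaine points of Camk2a lie between shock arrays 4 and 5, and Camkk2 has the largest difference of means (0.11).

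The balance of alpha to beta subunit transcripts was set between the groups within each array, where scaling of whole arrays cannot alter it. The level of Camk2a minus that of Camk2b was 2.31, 2.32, 2.27 and 2.34 on cocaine arrays 4 to 7, against 2.36, 2.28 and 2.30 on shock arrays 4 to 6. Part of that distance belongs to the probes, so only its change between groups can be read. The groups differed by -0.0016 (exact two-sided permutation p = 0.943, and 0.943 after Benjamini-Hochberg adjustment over 3 gene pairs). The smallest p that 4 against 3 arrays allow is 0.0286.

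Camk2n1 encodes an inhibitor protein that binds CaMKII and blocks its activity. It had 10.64, 10.63, 10.81 and 10.70 on the cocaine arrays, against 10.68, 10.68 and 10.73 on the shock arrays. Cocaine array 6 was the highest and cocaine array 5 the lowest, and the difference was -0.0050 (95% interval -0.13 to 0.12, limma adjusted p = 0.993). Relative to Camk2a within the array, the difference between groups was -0.012 (exact two-sided permutation p = 0.857, 0.943 after adjustment over the 3 pairs).

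Of the 9 measured CaM kinase inhibitors and phosphatases, 6 had a higher mean in the cocaine group and 3 a lower one, with a median difference of 0.025, and 0 passed limma's unadjusted or adjusted threshold. That median was 0.0039 without shock array 5, 0.014 with quantile normalization and 0.045 with median centring. Ppm1e and Ppm1f, phosphatases that remove the activating phosphates of CaM kinases, differed by 0.068 and 0.035 (Ppm1f by 0.016 without shock array 6). Ppp1cc, a catalytic subunit of protein phosphatase 1, differed by 0.059, or 0.035 without shock array 5. The groups of Ppp1cc and Ppm1f did not overlap, although the gaps were small: Ppm1f had 7.56 to 7.61 on the cocaine arrays and 7.50 to 7.56 on the shock arrays.

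**Figure D2:**
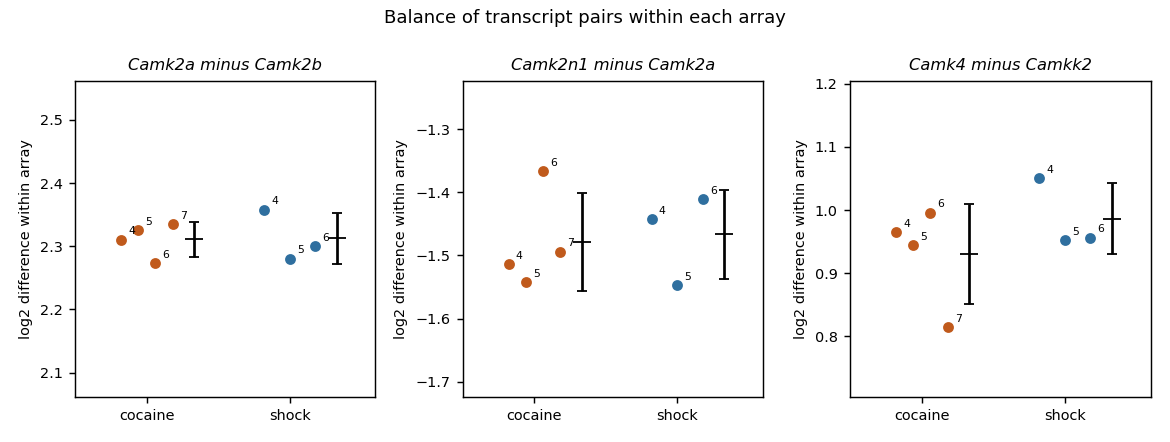
Difference of log2 levels within each array for Camk2a minus Camk2b, Camk2n1 minus Camk2a and Camk4 minus Camkk2 (points, numbered as the arrays are), with the cocaine group left and the shock group right; bars give the mean and SD (n = 4 and n = 3). The groups overlap in the 3 panels, and cocaine array 7 is the lowest for Camk4 minus Camkk2.

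Camkk2, the kinase that activates CaMKI, CaMKIV and the energy sensor AMPK, had the largest difference among the 9 genes (probe set 17452456, Entrez 207565). It had 9.24, 9.24, 9.31 and 9.39 on cocaine arrays 4 to 7, against 9.16, 9.28 and 9.13 on shock arrays 4 to 6. Shock array 5 lay above cocaine arrays 4 and 5, so the groups overlapped. Means were 9.30 ± 0.07 on the cocaine arrays and 9.19 ± 0.08 on the shock arrays (SD, n = 4 and n = 3). The difference of 0.11 (SE 0.056, 95% interval -0.022 to 0.24) is a 1.08-fold higher level, and the interval runs from 0.985-fold to 1.18-fold (limma adjusted p = 0.938). Its unadjusted p, 0.0900, was the smallest of the 9. Among the 13733 genes above the background level (5.46, from chemosensory receptor genes), 13.7% had a larger difference in size. Without shock array 5 the difference was 0.16 and its unadjusted p 0.0311 (limma adjusted p = 0.943). It was 0.080 without shock array 6 (limma unadjusted p = 0.247) and 0.080 without cocaine array 7 (limma unadjusted p = 0.183).

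Camk4 encodes CaMKIV, the mainly nuclear CREB kinase (probe set 17349341, Entrez 12326). It had 10.21, 10.19, 10.31 and 10.20 on the cocaine arrays, against 10.21, 10.23 and 10.08 on the shock arrays. Cocaine array 6 was the highest and shock array 6 the lowest, while the other 5 arrays lay within 10.19 to 10.23. The difference was 0.053 (95% interval -0.069 to 0.18, limma adjusted p = 0.938). Leaving out cocaine array 6 gave 0.026, and leaving out shock array 6 gave 0.0081. A further probe set of Camk4 had a mean of 5.99, and there the cocaine arrays averaged 6.01 ± 0.11 (SD, n = 4) and the shock arrays 5.97 ± 0.09 (SD, n = 3). Camk4 minus Camkk2 within the array differed by -0.056 between the groups (exact two-sided permutation p = 0.457, 0.943 after adjustment over the 3 pairs).

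By the within-group SD given below, the 3 CaMKI genes on the list had the largest spread of the 9 measured genes. Camk1 had 8.36, 8.51, 8.51 and 8.44 on the cocaine arrays, against 8.21, 8.47 and 8.44 on the shock arrays. Shock array 4 was the lowest, and without it the difference of 0.082 (95% interval -0.096 to 0.26, limma adjusted p = 0.938) became -0.00047. Camk1g, a neuronal form anchored to membranes by a lipid tail, had 8.69, 8.78, 8.71 and 8.67 against 8.55, 8.71 and 8.75. Shock array 4 was again the lowest, and the difference was 0.043 (95% interval -0.096 to 0.18), or -0.018 without that array.

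Camk1d ran the other way on the same array. It had 10.29, 10.29, 10.11 and 10.38 on cocaine arrays 4 to 7, against 10.42, 10.33 and 10.14 on shock arrays 4 to 6. The highest value was on shock array 4 and the lowest on cocaine array 6, with shock array 6 next to it. The difference was -0.030 (95% interval -0.24 to 0.18, limma adjusted p = 0.969) and it was 0.023 without cocaine array 6.

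The size of the spread differed within the family. The within-group SD, pooled over both groups, was 0.029 for Camk2d, 0.038 for Camk2a, 0.058 for Camk2g and 0.062 for Camk2b. It was 0.066 for Camk4, 0.073 for Camkk2, 0.078 for Camk1g, 0.11 for Camk1 and 0.13 for Camk1d. The median over genes above the background level was 0.077. The 4 CaMKII genes, Camk4 and Camkk2 lay below it, Camk1g just above it, and Camk1 and Camk1d farther above. Identical values on several arrays lower the SD of Camk2d. Of those genes, 8.05% had a smaller SD than Camk2d, 14.2% a smaller SD than Camk2a and 81.0% a smaller SD than Camk1d.

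Several members had their lowest or a raised value on the same array, which is a description of ranks and was not tested. Shock array 4 held the lowest value of 5 of the 9 genes (Camk2a, Camk2b, Camk2d, Camk1 and Camk1g) and the highest of Camk1d. For Camk2d the margin was slight (9.909, against 9.912 on cocaine array 4). On shock array 5, 8 of the 9 genes lay above their mean over the 7 arrays, and it was the highest for Camk2a and Camk2b. The mean deviation of the 9 genes was -0.052 on shock array 4, 0.037 on shock array 5 and -0.032 on shock array 6, and it ran from -0.023 to 0.032 on the cocaine arrays. The same shock arrays differed in 10 immediate early genes, which neurons transcribe soon after activity: their mean deviation was -0.78 on shock array 4, 0.53 on shock array 5 and -0.91 on shock array 6. On cocaine arrays 4 to 7 it was 0.49, 0.63, -0.29 and 0.33. The part of these differences in the CaM kinase values was not tested.

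**Figure D3:**
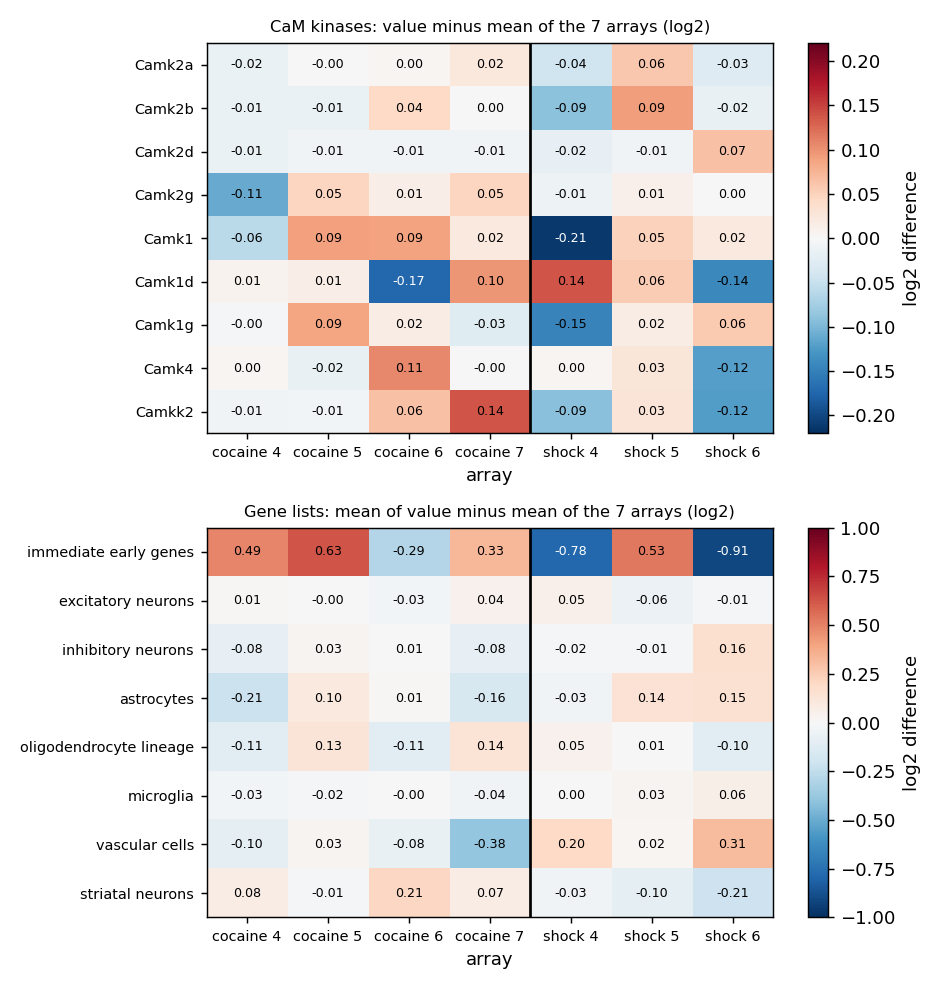
Deviation of each array from the mean of the 7 arrays on the log2 scale, for the 9 CaM kinase genes (upper panel) and as the mean over each marker list (lower panel), cocaine arrays left of the line and shock arrays right of it; the colour scales of the panels differ. Shock array 4 is lowest for Camk1 (-0.21) and highest for Camk1d (0.14), and the immediate early genes span -0.91 to 0.63.

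Over the arrays as a whole, the quartiles of all probe sets were nearly equal (medians 5.44 to 5.47). Arrays have no read depth, and their number limits the precision. Cocaine array 6 stood apart, with a mean distance of 37.2 to the others over all genes, against 23.9 to 29.6 between the other 6 arrays. A background level of 5.46 was taken from the 95th percentile of olfactory and vomeronasal receptor genes, and all 9 CaM kinases lay above it. All 7 measured excitatory neuron markers were above it too, with a mean level of 9.04 to 9.11 on the cocaine arrays and 9.01 to 9.11 on the shock arrays. Of these, 3 had a higher and 4 a lower mean in the cocaine group (-0.059 for Neurod2 to 0.145 for Neurod6). Vascular markers had a lower mean in the cocaine group in 8 of 8 genes (7.15 to 7.56 on the cocaine arrays, 7.55 to 7.84 on the shock arrays), and astrocyte markers in 7 of 7 (8.74 to 9.04, against 8.91 to 9.10). Inhibitory markers had a lower mean in 5 of 7 (8.15 to 8.26, against 8.22 to 8.39), microglial markers in 4 of 7 (6.06 to 6.10, against 6.10 to 6.16) and oligodendrocyte markers in 2 of 6 (7.99 to 8.24, against 7.997 to 8.15). The 5 measured striatal markers had a higher mean in the cocaine group (8.93 to 9.15, against 8.73 to 8.91), and so did 10 of 10 immediate early genes (7.996 to 8.92, against 7.38 to 8.82). Of the 57 measured marker genes, 0 passed limma's adjusted threshold. At an unadjusted p under 0.05, 9 passed (3 vascular, 3 striatal, 2 immediate early and 1 oligodendrocyte lineage gene), against 3.10% of all genes. The groups did not overlap in 6 of the 57, against 2.37% of all genes. The marker lists were chosen with earlier results of these data known, so neither count can be read as an excess.

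Genes around the kinases were read from 7 lists with 91 measured genes in all, of which 51 had a higher and 40 a lower mean in the cocaine group (median difference 0.0067). Of the 91, 0 passed the adjusted threshold and 0 passed at an unadjusted p under 0.05 (limma), against 3.10% of all genes for the second. The second count was 5 with trend and robust moderation (Itpka, Itpkb, Kcnd2, Pcp4 and Shank3), where 660 of all 22180 genes passed. It was 4 with median centring (761 of all genes) and 3 of 86 with dim genes left out (449 of 13733). Quantile normalization and array weights each gave 2 (696 and 746 of all genes), and the replicate block gave 1 (915). When single arrays were left out it was 0 to 6. The 6 came without shock array 5 (788 of all genes), and 4 came without cocaine array 5 (775). The adjusted count stayed at 0 under the alternatives run, for these genes and for all genes. The groups did not overlap in 8 of the 91 (8.79%), 6 higher and 2 lower in the cocaine group, against 2.37% of all genes. Since the lists were chosen with earlier results of these data known, this share cannot be read as an excess.

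Of the 7 measured genes in the list of calmodulin buffers and relatives, 5 had a higher mean in the cocaine group (median difference 0.018, or -0.019 without shock array 5). Pcp4, a small protein that speeds the exchange of calcium on calmodulin, averaged 12.49 ± 0.05 on the cocaine arrays and 12.39 ± 0.05 on the shock arrays (SD, n = 4 and n = 3) (difference 0.099, limma adjusted p = 0.938). Its relative Pcp4l1 differed by 0.067, which was 0.015 without cocaine array 6. Marcks, a membrane protein that calmodulin pulls off, differed by -0.064, which was -0.018 without cocaine array 4.

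Among the synaptic partners and substrates of CaMKII, 11 of 18 had a higher mean in the cocaine group, with a median difference of 0.0052 (-0.010 to 0.030 when single arrays were left out). Grin2b, the NMDA receptor subunit that CaMKII docks to, had 11.32, 11.34, 11.22 and 11.36 on the cocaine arrays, against 11.38, 11.40 and 11.15 on the shock arrays. Its difference was 0.00019 (95% interval -0.17 to 0.17), with the shock arrays at both ends of the range, and averaging both Grin2b probe sets gave 0.068. Itpka, an inositol trisphosphate kinase that binds actin in spines, had 9.498, 9.49, 9.65 and 9.59 on the cocaine arrays, against 9.44, 9.48 and 9.36 on the shock arrays. Its groups did not overlap, but the gap between cocaine array 5 and shock array 5 was narrow (difference 0.13, limma adjusted p = 0.938). Shank3, a scaffold of the postsynaptic density, differed by 0.12 without overlap (limma adjusted p = 0.938). Averaging both Shank3 probe sets gave 0.065, and leaving out shock array 6 gave 0.080. That of the potassium channel gene Kcnd2 was 0.093. The NMDA receptor subunit gene Grin2a, chosen after its values were seen because its groups did not overlap, differed by 0.10.

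Targets of the CaMKK, CaMKI and CaMKIV branch had a higher mean in the cocaine group in 10 of 17 genes, with a median difference of 0.0067 (-0.014 to 0.023 when single arrays were left out). Creb1, which encodes the CREB factor that CaMKIV phosphorylates, had 8.53, 8.47, 8.54 and 8.65 on the cocaine arrays, against 8.47, 8.54 and 8.56 on the shock arrays. The groups overlapped, with cocaine array 7 the highest and cocaine array 5 the lowest, and the difference was 0.021 (95% interval -0.10 to 0.15, limma adjusted p = 0.966), or -0.014 without cocaine array 7. Numb, a cell fate regulator, differed by 0.10, the transcription factor gene Srf by 0.069 and the CREB coactivator gene Crtc1 by -0.054. Leaving out 1 array gave 0.055 for Numb (shock array 6), 0.035 for Srf (shock array 4) and -0.084 for Crtc1 (cocaine array 7).

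Calcineurin, the calmodulin-dependent phosphatase that opposes these kinases at many sites, was read with its regulators from 8 genes, 5 of them with a higher mean in the cocaine group (median difference 0.039, or 0.011 without shock array 5). Its catalytic subunit gene Ppp3ca averaged 12.12 ± 0.02 on the cocaine arrays and 12.08 ± 0.02 on the shock arrays (SD, n = 4 and n = 3) (difference 0.036, 95% interval -0.040 to 0.11). The calcineurin regulator genes Rcan1 and Rcan2 differed by 0.095 and -0.064, with overlapping groups in both genes. Rcan1 differed by 0.058 without shock array 4, and Rcan2 by -0.021 without cocaine array 7.

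Among 19 other kinases of the CaM kinase group, 8 had a higher and 11 a lower mean in the cocaine group, with a median difference of -0.017, or 0.0045 without cocaine array 7. Pnck, a relative of CaMKI, had 8.96, 8.97, 8.97 and 8.86 on the cocaine arrays, against 9.02, 8.98 and 9.18 on the shock arrays. The groups did not overlap, and the difference was -0.12 (95% interval -0.25 to 0.018, limma adjusted p = 0.938), which became -0.060 without shock array 6. Mapkapk3 averaged 5.42 on the cocaine arrays, below background, and 5.504 on the shock arrays, just above it, so its difference has no measured size. Mknk2, a kinase of the translation factor eIF4E, differed by 0.14, or 0.061 without cocaine array 5. Camkv, a kinase-like protein that binds calmodulin, was also without overlap (difference 0.039) and was chosen after its values were seen.

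Other calmodulin-dependent enzymes had a lower mean in the cocaine group in 7 of 13 genes, with a median difference of -0.014. Leaving out cocaine array 6 gave a median of 0.016, and leaving out cocaine array 7 gave -0.042. Itpkb, an inositol trisphosphate kinase, had 7.80, 7.93, 7.86 and 7.81 on the cocaine arrays, against 7.97, 7.94 and 7.93 on the shock arrays. Its groups were separated only by the distance between cocaine array 5 and shock array 6, and the difference was -0.10 (limma adjusted p = 0.938). The calmodulin-dependent phosphodiesterase gene Pde1a differed by -0.066, or -0.041 without shock array 6. Its relative Pde1c averaged 5.54 on the cocaine arrays and 5.38 on the shock arrays, where none of the 3 values was above background, so its difference has no measured size.

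**Figure D4:**
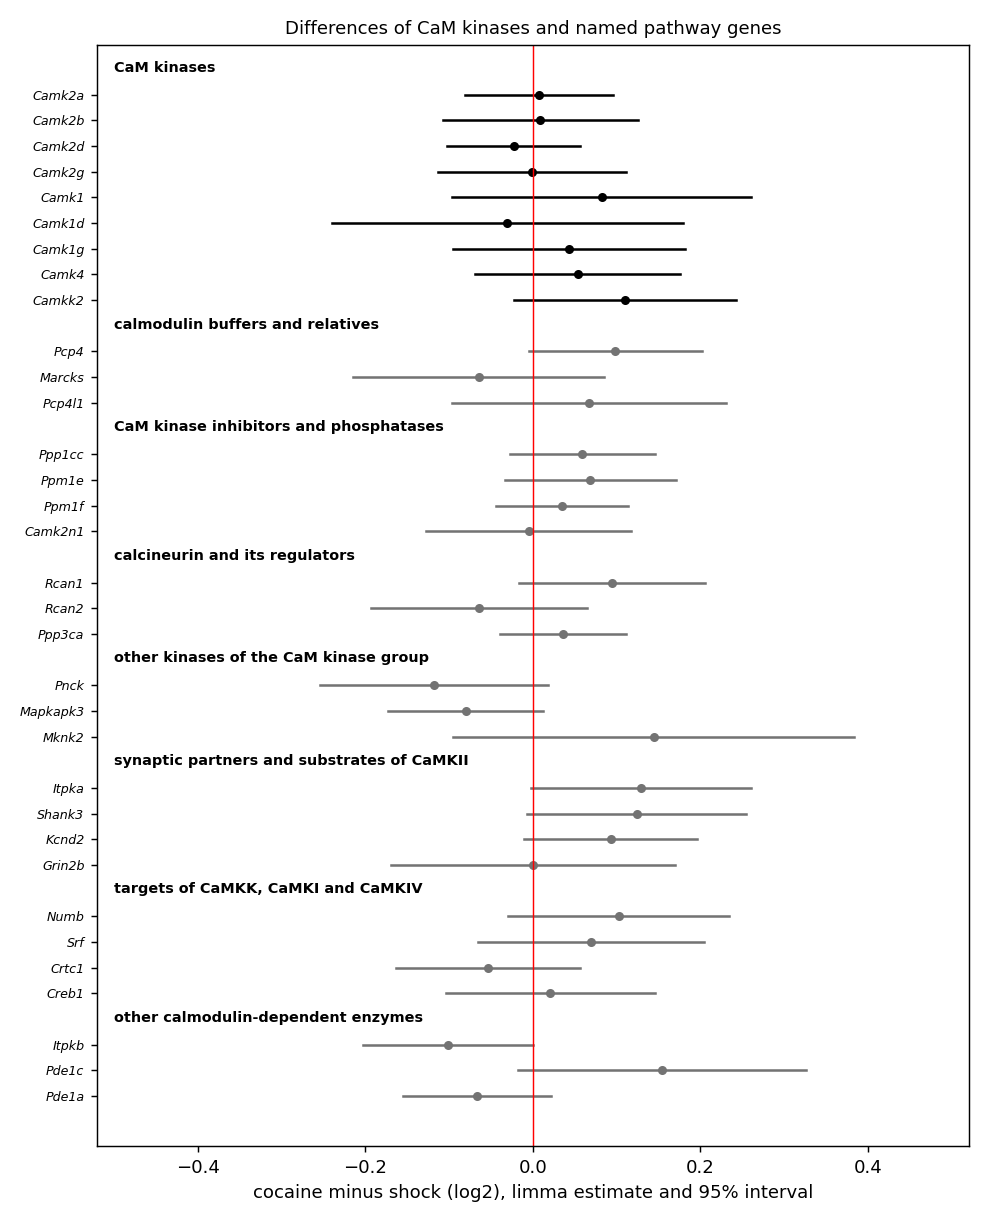
Cocaine minus shock on the log2 scale (points) with limma's 95% interval (lines, from 4 and 3 arrays) for the 9 CaM kinase genes in black and for the genes named by rule from 7 lists in grey. Mapkapk3 on the cocaine arrays and Pde1c on the shock arrays averaged below background, so their points have no measured size. The intervals of the 9 kinases all cross 0 and stay between -0.24 and 0.26.

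Likeness to Camk2a and Camk4 over the 7 arrays was measured as the mean absolute difference of values centred on each gene's mean, among genes above background that varied at least as much. For Camk2a the nearest 3 of 12160 genes were S100a10 (0.0098), Cstf1 (0.013) and Tbc1d16 (0.013), where the median candidate had 0.067. For Camk4 the nearest 3 of 8208 genes were Casp2 (0.011), Ndst2 (0.016) and Fbxo32 (0.017), where the median candidate had 0.094. With 7 arrays and so many candidates, such close profiles are a description of these arrays.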

How the data were processed

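Per the submitters' processing notes, the deposited log2 values came from Transcriptome Analysis Console. How they were summarized and normalized is not given in the sources used here, and log2 was read from the values (1.12 to 13.44). Of 41345 probe sets, 23521 had 1 gene symbol, 1814 several, and 16010 were unnamed here. Each gene was read from its brightest probe set (22180 genes), and 55.9% of probe sets had tied values on 2 or more arrays. Tests of differences used limma (3.58.1, R 4.3.3; lmFit and eBayes, two-sided, 7 arrays, no covariate, Benjamini-Hochberg over all genes at 0.05), and 3 gene pairs by exact permutation over 35 arrangements. Both were tested on simulated data. Members and lists were chosen with earlier results of these data known. Named genes were all members, the 3 of smallest p in each list, and Camk2n1, Grin2b, Creb1 and Ppp3ca; 1 further gene of this rule is not reported here. Alternatives left out each array or dim genes, or changed normalization, probe sets, moderation, weights or pairing. No sequence is shown, since the arrays do not resolve one.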

Additional observations from a re-analysis of the deposited data

Results flagged for a closer look

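In the 4 cocaine arrays, 8 of 43 measures had one array far from the rest, by a gap to the nearest array past Dixon's 95% limit, given here as a share of the group's range. Chance gives about 5% of independent measures without ties, here 2.15. Camk2d had the largest gap (1.0), with array 4 lowest, but its other 3 values were identical and the whole range was under 0.01. Camk4 was highest on array 6 (0.8382). Array 4 was highest for Ppm1f (0.9222). Array 5 was highest for Mknk2 (0.9045), Ppp1cc (0.8593) and Numb (0.8472). Array 7 was lowest for Rcan2 (0.9131) and Pnck (0.8878). Ppm1f, Pnck and Numb each had an identical value on 2 of the arrays, which favours a large gap. The 3 shock arrays are too few for this rule.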

How the results depend on the processing

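No member passed the adjusted threshold under any of the 14 alternatives run, and neither did any other gene tested. That result therefore does not set the members apart. Without single arrays, 0 to 1 members had an unadjusted p under 0.05 (limma), against 531 to 788 of all 22180 genes. The 1 was Camkk2 without shock array 5, where the 788 were also found. When single arrays were left out, the median difference of the members ran from -0.0060 to 0.057, the highest without shock array 5. Leaving out 1 array turned the sign of 7 members, whose ranges were -0.013 to 0.039 for Camk2a, -0.034 to 0.057 for Camk2b, -0.038 to 0.0032 for Camk2d, -0.016 to 0.036 for Camk2g, -0.00047 to 0.13 for Camk1, -0.11 to 0.030 for Camk1d and -0.018 to 0.084 for Camk1g. Camk4 (0.0081 to 0.082) and Camkk2 (0.080 to 0.16) kept their sign. It also turned Camk2n1 (-0.043 to 0.017), Grin2b (-0.080 to 0.046), Creb1 (-0.014 to 0.048), Camk2a minus Camk2b (-0.018 to 0.021) and Camk2n1 minus Camk2a (-0.052 to 0.016). Quantile normalization turned Camk2a (-0.0026) and Grin2b (-0.000099), median centring Camk2g (0.020) and Camk2n1 (0.015), and array weights Camk2g (0.0012) and Grin2b (-0.0015). The cause of these turns was not tested. Deviations of same-numbered arrays correlated at 0.13, 0.064 and 0.16 for numbers 4, 5 and 6, and 1 of the 3 fell under the 0.1 limit used here for pairs. The main test assumed no pairing, but these correlations do not settle whether same-numbered arrays were pairs. Differently numbered cocaine and shock arrays among numbers 4, 5 and 6 correlated at -0.097 to -0.019, all below the same-numbered ones. Deviations were taken from the group mean, so those of the 3 shock arrays sum to 0. The values for different numbers are therefore not independent of the same-numbered ones. Shock array 5 correlated best with cocaine array 7 (0.090). The median of other calmodulin-dependent enzymes was -0.042 with the replicate block. With that block, Grin2b was -0.017 and Creb1 -0.014, 0 members were called, and 915 of all genes had an unadjusted p under 0.05, against 688.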
